A study of Triticum aestivum with 16 samples.

Results

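PPD1 and FT1 belong to the pathway by which wheat times flowering to day length. PPD1 encodes a pseudo-response regulator of the circadian clock family that promotes flowering in long days, and FT1 encodes the mobile flowering signal that is made in leaves and acts in the shoot apex. In wheat, PPD1 acts upstream of FT1, and FT1 in turn promotes VRN1 and other MADS-box genes of the floral transition. Bread wheat carries these genes in copies on its A, B and D subgenomes. The genes described here were 5 identifiers taken by name, of 120744 in each table: PPD1-2A (TraesCS2A02G081900), PPD1-2D (TraesCS2D02G079600), FT1-7A (TraesCS7A02G115400), FT1-7B (TraesCS7B02G013100) and FT1-7D (TraesCS7D02G111600). The copy of PPD1 on chromosome 2B was not analysed here.

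The study sequenced messenger RNA of bread wheat seedlings: 16 libraries, 2 for each of 8 groups. The groups of the cultivar AiKang58 (AK58) were axillary buds of 1.0 to 2.0 cm from plants of 6 weeks that had spent 30 days at 4 °C, and leaves, roots and shoot apices from untreated plants of 2 weeks. The groups of the cultivar Zhengmai7698 (ZM7698), all at 2 weeks, were axillary buds of 1.0 to 2.0 cm and shoot apices of M6, a hexa-mutant of the transcription factor genes TaSPL7 and TaSPL15, and the same tissues of WT. All plants grew with 16 h of light at 22 °C and 8 h of dark at 19 °C. The time of day at sampling is not given in the labels, nor is whether M6 is 1 line or several, or whether replicates came from separate plants. The p-values therefore measure only the spread between these samples, which may be technical.

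The AK58 values are normalised reads, that is, whole reads per gene divided by 1 factor per library, from 51497044 to 79585209 reads per library. They are not corrected for gene length. The ZM7698 values are TPM, in which reads are corrected for gene length and scaled to the same sum in each library, and their depth is unknown. The sets were analysed apart. Replicates correlated at 0.947 to 0.982 across genes on the log2 scale, except those of AK58 root, which correlated at 0.77. All 4 AK58 tissues share 1 estimate of the spread per gene, so the root libraries enter the error of every AK58 comparison. Without them the SE in leaf over apex was 0.44 for PPD1-2A and 0.28 for PPD1-2D, against 0.70 and 0.36 with them. As a check of the tissue labels, TB1, a repressor of bud outgrowth that is active in axillary buds, had 0 reads of all 3 copies in each AK58 leaf and root library. It stood between 15.9 and 33.7 normalised reads per copy in AK58 buds and between 29.2 and 67.0 in apices. In AK58 it thus separates bud and apex from leaf and root but not from each other, and each copy had its higher mean in the apex. In ZM7698 the direction was opposite: each copy was higher in both bud libraries than in both apex libraries of the same genotype. TB1-4B, for example, stood at 15.1 and 17.2 TPM in the WT bud against 2.03 and 3.30 TPM in the WT apex. No marker of the other tissues was available, and the M6 genotype was not checked on the mutated genes.

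In AK58 the A and D copies of PPD1 followed different tissue patterns, with called changes in opposite directions in 3 of 6 comparisons. Of all genes tested, 26.1% were called in bud over leaf, 34.1% in bud over root and 40.4% in leaf over apex. These 3 comparisons share bud and leaf libraries, so they are not separate observations. How often the A and D copies of other genes are called in opposite directions was not counted. PPD1-2A was high in the bud and the apex and nearly silent in leaf and root, whereas PPD1-2D was highest in the leaf and lowest in the bud. Between leaf and apex the difference was opposite, PPD1-2A 23.8-fold lower and PPD1-2D 3.24-fold higher in the leaf by their means. Between leaf and root both copies had the higher mean in the leaf. In bulk tissue, fewer cells that express a gene and less RNA per cell cannot be told apart.

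PPD1-2A stood at 172 and 166 normalised reads in the bud libraries, 4.39 and 8.33 in the leaf, 0 and 1.88 in the root and 165 and 137 in the apex. The leaf values rest on 4 and 9 reads and the root values on 0 and 2 reads, against 239 and 202 reads in the bud and 197 and 162 in the apex. Every bud and apex library lay above every leaf and root library. In root replicate 1 the count of 0 allows up to 2.24 normalised reads, taking 3 reads as the limit.

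PPD1-2D stood at 59.1 and 60.0 normalised reads in the bud libraries, 528 and 440 in the leaf, 143 and 247 in the root and 149 and 150 in the apex. The leaf libraries were the highest and the bud libraries the lowest. The root libraries lay on either side of the apex libraries.

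**Figure D1:**
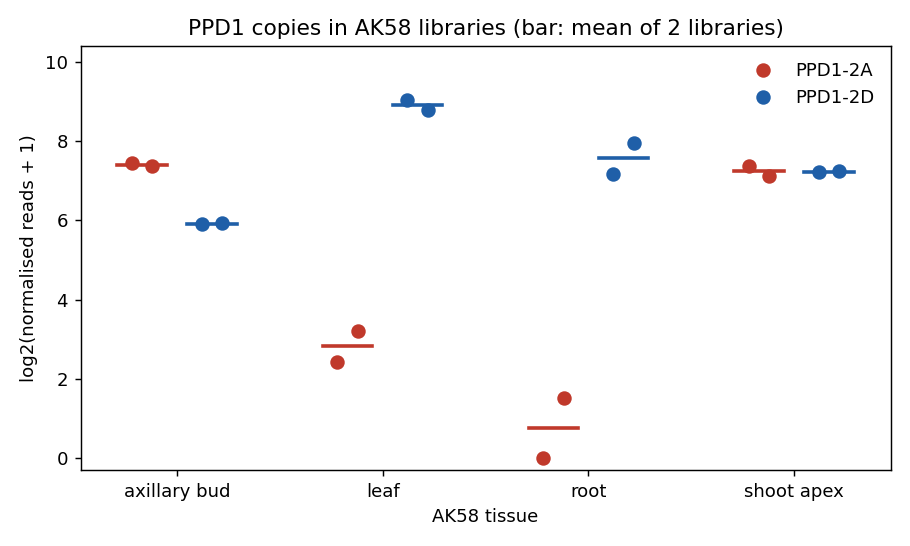
Level of PPD1-2A and PPD1-2D in each AK58 library, as log2 of normalised reads + 1, by tissue. Each point is 1 library and each bar the mean of 2 libraries. PPD1-2A is high in bud and apex (137 to 172 normalised reads) and near 0 in leaf and root, while PPD1-2D peaks in leaf (440 and 528).

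The tissues were compared with limma on log2 of the value + 1, fitted over all 69525 genes that passed a filter on low values. A call needed a Benjamini-Hochberg adjusted p under 0.05 and a log2 fold change of at least 1 in either direction. Both PPD1 copies passed the filter and no FT1 copy did. Calls were common between these tissues: 26.1% of genes tested were called for bud over leaf, 34.1% for bud over root, 17.8% for bud over apex, 23.5% for leaf over root, 40.4% for leaf over apex and 34.2% for root over apex. That a PPD1 copy was called is therefore not unusual in itself.

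The opposite changes of the copies were called in 3 of the 6 comparisons, which share bud and leaf libraries. In leaf over apex, the log2 value of PPD1-2A fell by 4.42 ± 0.70 (SE; limma adjusted p = 0.00495) and PPD1-2D rose by 1.68 ± 0.36 (SE; limma adjusted p = 0.0138). In bud over leaf, PPD1-2A rose by 4.58 ± 0.70 (SE; limma adjusted p = 0.00902) and PPD1-2D fell by 2.995 ± 0.36 (SE; limma adjusted p = 0.00514). In bud over root, PPD1-2A rose by 6.65 ± 0.70 (SE; limma adjusted p = 0.00116) and PPD1-2D fell by 1.64 ± 0.36 (SE; limma adjusted p = 0.0156). The bud differed from leaf and root in age and cold treatment as well as tissue, and these cannot be told apart. Leaf and apex were taken at the same age.

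The remaining comparisons gave a call for 1 copy or for none. In root over apex, the log2 value of PPD1-2A fell by 6.48 ± 0.70 (SE; limma adjusted p = 0.00122). PPD1-2D had a log2 change of 0.33 there and was not called (limma adjusted p = 0.514; 95% interval -0.55 to 1.21). In leaf over root, PPD1-2D rose by 1.35 ± 0.36 (SE; limma adjusted p = 0.0408), while the log2 change of 2.06 for PPD1-2A was in the same direction and was not called (limma adjusted p = 0.0811; 95% interval 0.36 to 3.77). In bud over apex neither copy was called. PPD1-2A had a log2 change of 0.17 (limma adjusted p = 0.921; 95% interval -1.54 to 1.87), and PPD1-2D one of -1.31 (limma adjusted p = 0.0538; 95% interval -2.19 to -0.43).

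**Figure D2:**
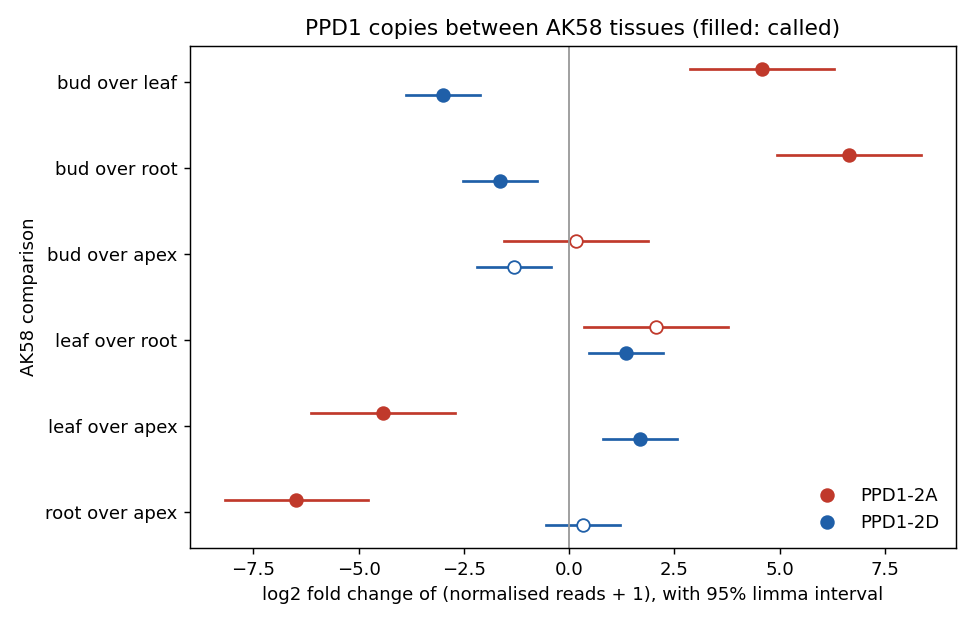
Log2 fold change of PPD1-2A and PPD1-2D in the 6 AK58 comparisons, named as the first tissue over the second. Points are limma estimates, lines 95% intervals and filled points called changes. The copies lie on opposite sides of 0 in bud over leaf (4.58 and -2.995), bud over root (6.65 and -1.64) and leaf over apex (-4.42 and 1.68).

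By these values, the order for PPD1-2A in AK58 was bud, apex, leaf and root. Its step from apex to leaf was called, whereas bud and apex, and leaf and root, were not separated by the test. The order for PPD1-2D was leaf, root, apex and bud. Its step from leaf to root was called, but root and apex, and apex and bud, were not separated in the fit of all 4 tissues.

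Some of these calls were lost when 1 library was left out, which leaves 1 library in its group. A lost call does not by itself mean that the change rested on that library. In leaf over apex, PPD1-2D kept a log2 change of 1.55 to 1.81 over these fits, against 1.68 with all libraries. Its SE rose from 0.36 to 0.48 without leaf replicate 1. The PPD1-2A calls in leaf over apex, bud over root and root over apex held with each of the 8 AK58 libraries left out in turn (limma adjusted p up to 0.0415). The PPD1-2D call in leaf over root was lost in 7 of 8 such fits, its fold falling under the limit without root replicate 1 (log2 change 0.96), and it held without root replicate 2 (limma adjusted p = 0.00949). With the replicate number as a block it was also lost (limma adjusted p = 0.0593). The PPD1-2D call in leaf over apex was lost without either leaf or either apex library (limma adjusted p up to 0.0929). The bud over leaf calls were lost without leaf replicate 1 or bud replicate 1 for both copies, and without bud replicate 2 for PPD1-2A (limma adjusted p up to 0.0805). The PPD1-2D call in bud over root was lost without either bud library (limma adjusted p up to 0.0899). Other differences gained a call. PPD1-2D in bud over apex was called without root replicate 1 or root replicate 2 (log2 change -1.31 and limma adjusted p = 0.0090 each time) and without both (limma adjusted p = 0.00942). PPD1-2A in leaf over root was called without root replicate 2 (log2 change 2.83; limma adjusted p = 0.0128). The calls of both copies in bud over leaf and leaf over apex held without the root libraries. With 0.1 added in place of 1, the PPD1-2A call in bud over leaf was lost (limma adjusted p = 0.0546), and without the filter as well the one in leaf over apex (limma adjusted p = 0.051). With only the contrasted tissues in the fit, the PPD1-2D calls in bud over root and leaf over root were lost (limma adjusted p = 0.104 and 0.135).

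The counting error behind the low PPD1-2A values was computed from the recovered reads. Leaf over apex gave a ratio of 0.0432 (95% exact interval 0.0228 to 0.0748), from 13 and 359 reads. Root over apex gave 0.00551 (95% exact interval 0.000665 to 0.0201), from 2 and 359 reads. These intervals cover counting error only, and reads are not independent molecules. The fitted log2 changes against root depend on the 1 that was added to each value: with 0.1 added, PPD1-2A in root over apex changed by -8.40 (limma adjusted p = 0.00702), and with 5 added by -4.73 (limma adjusted p = 0.000712).

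The balance of the copies shows the same contrast within each library. PPD1-2A made up 74.5% and 73.5% of the summed reads of both copies in the AK58 bud libraries, 0.825% and 1.86% in the leaf, 0% and 0.755% in the root and 52.5% and 47.8% in the apex. The exact 95% binomial intervals were 67.8% to 79.1% over the bud libraries and 42.4% to 57.7% over the apex libraries, and no leaf or root interval reached above 3.50%. The A copy therefore held most of the reads in the bud, about as many as the D copy in the apex and almost none in leaf and root. The sum of both copies averaged 229 ± 3.79 normalised reads in the bud, 490.1 ± 59.7 in the leaf, 196 ± 75.3 in the root and 300.5 ± 18.1 in the apex (SD, n = 2 each). These shares are not corrected for length, and reads common to both copies could have been split between them by the counting. The shares are given as a description and were not tested.

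**Figure D3:**
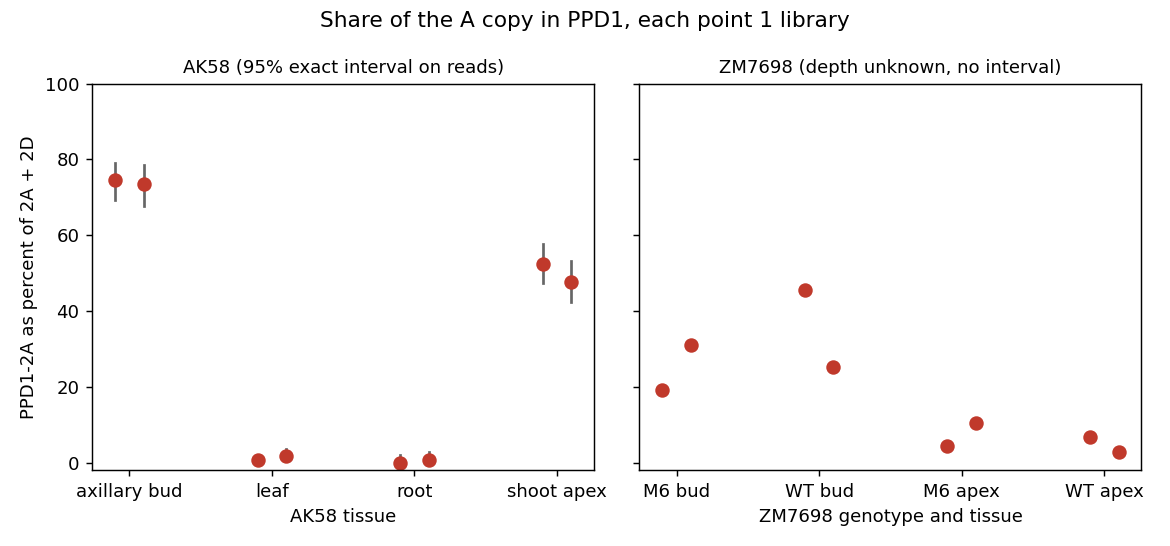
PPD1-2A as a percentage of PPD1-2A + PPD1-2D in each library, from normalised reads in AK58 and from TPM in ZM7698. Each point is 1 library and grey lines are exact 95% binomial intervals on reads. The share is highest in the AK58 bud (73.5% and 74.5%) and at most 1.86% in AK58 leaf and root, and in ZM7698 it is higher in buds than in apices of both genotypes.

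In ZM7698 both copies were weakly expressed in bud and apex, and PPD1-2D was the higher copy in each of the 8 libraries. Leaf and root were not part of this set. PPD1-2A stood at 0.582 and 0.450 TPM in the M6 bud, 0.734 and 0.661 TPM in the WT bud, 0.178 and 0.326 TPM in the M6 apex and 0.226 and 0.162 TPM in the WT apex. Every bud library lay above every apex library. PPD1-2D stood at 2.46 and 1.01 TPM in the M6 bud, 0.875 and 1.95 TPM in the WT bud, 3.79 and 2.79 TPM in the M6 apex and 3.13 and 5.63 TPM in the WT apex. Here every apex library lay above every bud library, and the genotypes overlapped in each tissue. Among the 107891 wheat gene identifiers, 42.7% to 56.0% had a lower TPM than PPD1-2A in the same library, and 57.6% to 79.5% had a lower TPM than PPD1-2D.

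**Figure D4:**
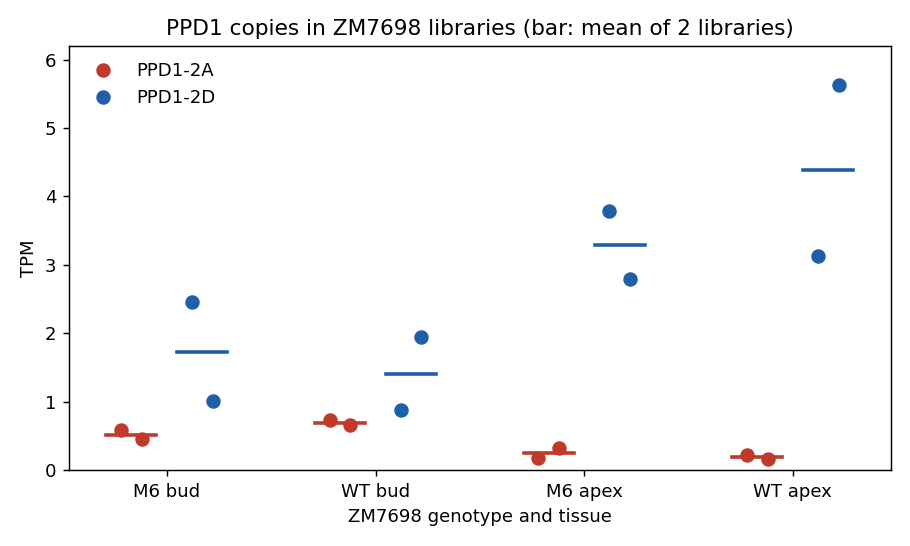
Level of PPD1-2A and PPD1-2D in TPM in each ZM7698 library, by genotype and tissue. Each point is 1 library and each bar the mean of 2 libraries. PPD1-2D lies between 0.875 and 2.46 TPM in buds and between 2.79 and 5.63 TPM in apices, and PPD1-2A stays under 1 TPM throughout.

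No PPD1 difference in ZM7698 was called. PPD1-2D passed the filter of 1 TPM in at least 2 libraries, with 50878 genes tested, and PPD1-2A and the FT1 copies did not. Calls were rare in this set: 0.134% of genes for M6 over WT in the apex, 0.147% for M6 over WT in the bud, 2.5% for bud over apex in WT, 0.0884% for bud over apex in M6 and 0% for the difference between the M6 effects. For that difference 4105 genes had an unadjusted p under 0.05 in limma.

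M6 and WT were compared to ask whether PPD1 changed where the SPL genes were mutated. In the apex PPD1-2D averaged 3.29 ± 0.703 TPM in M6 and 4.38 ± 1.77 TPM in WT (SD, n = 2 each), a log2 change of -0.30 (limma adjusted p = 0.951; 95% interval -1.18 to 0.59). In the bud it averaged 1.73 ± 1.03 TPM in M6 and 1.41 ± 0.761 TPM in WT (SD, n = 2 each), a log2 change of 0.16 (limma adjusted p = 0.896; 95% interval -0.72 to 1.05). The sign turned in the apex without WT apex replicate 2 (0.046), and in the bud without WT bud replicate 1 or M6 bud replicate 1 (down to -0.23). The effect of M6 in the bud minus that in the apex was 0.46 (limma adjusted p = 0.836; 95% interval -0.79 to 1.71). For PPD1-2A, fitted without the filter, M6 over WT gave log2 changes of 0.066 in the apex (limma adjusted p = 0.953; 95% interval -0.14 to 0.27) and -0.16 in the bud (limma adjusted p = 0.662; 95% interval -0.37 to 0.045). The sign in the apex turned without M6 apex replicate 2 (-0.019). These PPD1-2A changes and their intervals are too narrow, since PPD1-2A lies under the 1 TPM that was added. With 0.1 added, M6 over WT gave 0.24 in the apex (limma adjusted p = 0.959; 95% interval -0.55 to 1.03). In the bud it gave -0.38 (limma adjusted p = 0.767; 95% interval -1.17 to 0.41). The intervals of PPD1-2D leave room for log2 changes from -1.18 to 0.59 in the apex and from -0.72 to 1.05 in the bud. No difference was detectable with this spread.

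Between ZM7698 tissues the copies ran in opposite directions, but neither difference passed the test. PPD1-2D was lower in the bud, with a log2 change of -1.15 in WT (limma adjusted p = 0.166; 95% interval -2.04 to -0.27) and -0.69 in M6 (limma adjusted p = 0.503; 95% interval -1.58 to 0.19). PPD1-2A was higher in the bud by a ratio of means of 3.60 in WT and 2.05 in M6. Fitted without the filter, its log2 change was 0.51 in WT (limma adjusted p = 0.0607) and 0.28 in M6 (limma adjusted p = 0.355). These values understate the change, since PPD1-2A lies under the 1 TPM that was added. With 0.1 added they were 1.45 (limma adjusted p = 0.0909) and 0.83 (limma adjusted p = 0.42). PPD1-2A made up 19.2% and 30.9% of the summed TPM of both copies in the M6 bud against 4.49% and 10.46% in the M6 apex, and 45.6% and 25.3% in the WT bud against 6.74% and 2.80% in the WT apex. In AK58, M6 and WT alike, the share of the A copy was higher in each bud library than in each apex library, without a test. The AK58 buds had been cold-treated and were older than their apices, which was not so in ZM7698.

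FT1 was at or near 0 in every library of both cultivars. In AK58, 23 of the 24 values of the 3 copies were 0 reads, in leaf as well as in root, apex and bud. The exception was FT1-7B in bud replicate 2, with 2 reads or 1.64 normalised reads (exact 95% Poisson interval 0.199 to 5.94). Taking 3 reads as the limit, a count of 0 allows up to 2.16 to 3.29 normalised reads, depending on the library. In ZM7698, where bud and apex but no leaf were sampled, all 24 values of FT1 were listed at 0 TPM. Values of 0 throughout were common: 21.2% of wheat gene identifiers had 0 in all AK58 libraries and 24.9% in all ZM7698 libraries, and 23.9% had at most 2 reads over the 8 AK58 libraries together. Apart from those 2 reads, FT1 transcripts were not detectable in AK58 at this depth, and no comparison of FT1 was possible. In the leaf libraries without FT1 reads, PPD1-2D had its highest values, 528 and 440 normalised reads.

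The surroundings of the genes were read from the order of the identifiers, a choice made after the values were seen. Of the 10 identifiers nearest to FT1, 5 on each side, 5 had reads in AK58 around FT1-7A, 7 around FT1-7B and 7 around FT1-7D. Of these, 4, 4 and 5 passed the expression filter, so the zeros of FT1 did not extend to all neighbours. For scale, 21.2% of all wheat gene identifiers had 0 in every AK58 library, and 69525 of all 120744 identifiers passed the filter. These 120744 include 12853 that are not wheat gene identifiers and could not be neighbours. The neighbours were not tested against these shares. Around PPD1-2A, 5 of the 10 nearest identifiers were tested in leaf over apex, and 1 was called higher and 1 lower, where 40.4% of all genes tested were called. Around PPD1-2D, 7 were tested, with 1 called higher and 1 lower.

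The genes most like each copy were taken as the 3 with the highest Pearson correlation of log2 values over the 8 libraries of a set. These libraries are 4 tissues or groups of 2, so a high correlation is easily reached. For PPD1-2A in AK58 they were TraesCS3B02G201700 (r = 0.995), TraesCS7B02G342400 (r = 0.994) and TraesCS5D02G319000 (r = 0.992), and 581 of 69525 genes exceeded 0.95. TraesCS3B02G201700 averaged 11623 normalised reads in the bud, 120.1 in the leaf, 10.7 in the root and 13004 in the apex. For PPD1-2D in AK58 they were TraesCS3D02G497000 (r = 0.990), TraesCS2A02G046600 (r = 0.986) and TraesCS3B02G552100 (r = 0.985), with 105 genes over 0.95. TraesCS2A02G046600 averaged 33.7 normalised reads in the bud, 346 in the leaf, 130.3 in the root and 115 in the apex. PPD1-2A and PPD1-2D correlated with each other at -0.61 over the same 8 libraries. For PPD1-2D in ZM7698 the nearest were TraesCS3D02G432900 (r = 0.993), TraesCS4A02G326300 (r = 0.989) and TraesCS7A02G112000 (r = 0.988), and 108 of 50878 genes exceeded 0.95.

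Other genes of the floral transition were taken as 15 copies of VRN1, FUL2 and FUL3, which promote it, and of SVP1 and VRT2, relatives of the Arabidopsis flowering repressor SVP. In AK58, 10 were tested. Of all genes tested, 40.4% were called in leaf over apex, 26.1% in bud over leaf and 34.1% in bud over root. The share was 17.8% in bud over apex, 23.5% in leaf over root and 34.2% in root over apex. The counts of listed genes were not tested against these shares. In leaf over apex 0 were called higher and 5 lower, with a median log2 change of -1.35 against -0.14 over all genes. In bud over leaf 5 were higher and 0 lower (median 1.41 against 0.017), in bud over root 7 and 1 (5.56 against 0.0088), in bud over apex 3 and 3 (-0.49 against -0.066), in leaf over root 4 and 1 (1.07 against -0.19) and in root over apex 1 and 6 (-2.42 against -0.0077). The VRT2 copies were lower in leaf than in apex, as PPD1-2A was, with log2 changes of -3.23 for VRT2-7A (limma adjusted p = 0.00108), -3.66 for VRT2-7B (limma adjusted p = 0.00217) and -2.24 for VRT2-7D (limma adjusted p = 0.0149). The VRT2-7D call was lost without either leaf or either apex library (limma adjusted p up to 0.0961). In bud over apex, where PPD1-2A had a log2 change of 0.17, VRT2-7A fell by 2.07 (limma adjusted p = 0.00965) and VRT2-7B fell by 2.01 (limma adjusted p = 0.0306). The first call was lost without either bud library or apex replicate 2 (limma adjusted p up to 0.0883), and the second without any 1 bud, leaf or apex library (limma adjusted p up to 0.183). All 3 VRN1 copies were called higher in the cold-treated bud than in the apex, in each setting that tested them. VRN1-5A rose by 5.11 ± 0.61 (SE; limma adjusted p = 0.00375), while the fitted changes of VRN1-5B and VRN1-5D depended on the value added (4.45 to 6.67 and 4.92 to 10.5 over the settings). In ZM7698, 6 were tested, of which 1, SVP1-6D, was higher and 0 lower in M6 in each tissue. For bud over apex 0 were called in either genotype. Of all genes tested, 0.134% were called for M6 over WT in the apex and 0.147% in the bud. For bud over apex the shares were 2.5% in WT and 0.0884% in M6. SVP1-6D had a log2 change of 3.05 in the M6 apex (limma adjusted p = 0.00852) and 3.37 in the M6 bud (limma adjusted p = 0.00519). The call in the apex was lost without any 1 of the 4 apex libraries (log2 changes 2.94 to 3.17; limma adjusted p up to 0.161). The call in the bud was lost without either WT bud library (3.30 and 3.44; limma adjusted p up to 0.0883) and with only the bud groups fitted (3.37; limma adjusted p = 0.107).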

How the data were processed

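Trimmomatic, HISAT2 2.0.5 and StringTie 1.3.3b appear in the submitters' processing notes, and no source used here names a genome build. The authors deposited the ZM7698 values as TPM. They deposited the AK58 values under the same name, but each is a signal of whole reads over a library factor: every value (100%) became whole within 0.001 reads. The analysis of AK58 was planned with this known. limma 3.58.1 (R 4.3.3) was run for each set separately, with an intensity trend and with all 8 libraries sharing 1 estimate of the spread. The filter was 10 normalised reads or 1 TPM in at least 2 libraries. The limma and edgeR code was tested on simulated data. Recovered AK58 reads were also tested with edgeR 4.0.16, and counting intervals used scipy 1.17.1 in Python 3.11.15.

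The genes, the flowering list and TB1 were chosen with earlier results of these data known, so none of them is independent evidence. Gene names rest on published identifiers, which neither the files nor the reference table pair with names, and no sequence of these genes was used here. Named are the 5 members, listed genes that were called, TB1 as a label check, and the 3 genes nearest to each tested member. Each fit was repeated with 0.1 and with 5 added, without the filter, with stricter filters (50 normalised reads, 5 TPM), after median centring or quantile normalization, without the trend, on the contrasted groups alone, without a minimum fold change, with a replicate block, without the root libraries and without each library. PPD1-2A in ZM7698, which lies under the filter, was fitted without it, and its alternatives, except the stricter filters, were applied to that fit. These, and no filter together with 0.1 added, were chosen after the data were seen.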

Additional observations from a re-analysis of the deposited data

How the results depend on the processing

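Apart from single libraries left out, no setting that gave a value changed the sign of a PPD1 fold change. PPD1-2A in bud over leaf lost its call with 0.1 added, with and without the filter (4.78 both times; limma adjusted p = 0.0546 and 0.062), and in leaf over apex with 0.1 added and no filter (-4.61; limma adjusted p = 0.051). With only the contrasted groups fitted, PPD1-2D lost its call in bud over root (-1.64; limma adjusted p = 0.104) and leaf over root (1.35; limma adjusted p = 0.135) and gained one in bud over apex (-1.31; limma adjusted p = 0.0184), which it also gained without the root libraries (-1.31). PPD1-2A in leaf over root was called with median centring (2.62; limma adjusted p = 0.0302) and quantile normalization (3.35; limma adjusted p = 0.0125). Fewer groups change the spread, and centring shifted leaf over root by 0.55, leaf over apex by 0.49 and bud over leaf by -0.38 (log2). Other causes were not tested. edgeR on the recovered reads called the same PPD1 comparisons as limma.

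With each library left out, the log2 changes ranged from 4.19 to 4.98 (PPD1-2A) and -3.13 to -2.86 (PPD1-2D) in bud over leaf, from -2.04 to -1.25 in bud over root, -1.32 to -1.303 in bud over apex and 1.55 to 1.81 in leaf over apex for PPD1-2D, and from 1.299 to 2.83 (PPD1-2A) and 0.96 to 1.75 (PPD1-2D) in leaf over root. They ranged from -0.065 to 0.72 in root over apex, with the lowest value without root replicate 2, and for M6 over WT from -0.64 to 0.046 in the apex and -0.23 to 0.56 in the bud, all for PPD1-2D. For PPD1-2A in ZM7698 they ranged from -0.019 to 0.15 for M6 over WT in the apex, and no setting gave it a call. The copy ratio, log2 of 2D to 2A with 1 added, moved with the added value: with 0 it was 3.76 in the M6 apex, 4.46 in the WT apex and 1.62 in the M6 bud, and with 5 it was 0.66, 0.84 and 0.28 there, 5.04 in AK58 root and -1.43 in AK58 bud.

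Deviations of same-numbered libraries correlated across groups between -0.118 and 0.43 in AK58 and between -0.308 and 0.164 in ZM7698. With 2 libraries per group, this cannot tell if the numbers pair samples. The replicate block changed 1 PPD1 call, leaf over root for PPD1-2D (1.35; limma adjusted p = 0.0593), and left 26 genes called against 68 for M6 over WT in the apex, 30 against 75 in the bud, and 20 against 1271 and 1 against 45 for bud over apex in WT and M6. Over all settings the genes called ranged from 1403 to 31524 in bud over leaf, 11068 to 31380 in bud over root, 3258 to 23955 in bud over apex, 7102 to 32406 in leaf over root, 10970 to 38085 in leaf over apex and 11638 to 31693 in root over apex. In ZM7698 they ranged from 14 to 100 and 15 to 2012 for M6 over WT in apex and bud, 0 to 2063 and 1 to 2420 for bud over apex in WT and M6, and 0 to 1634 for the difference of the M6 effects. Of the flowering list, 1 to 6 were higher in bud over leaf, 4 to 9 higher in bud over root, 1 to 4 higher and 0 to 4 lower in bud over apex, 3 to 6 higher in leaf over root, 3 to 8 lower in leaf over apex and 6 to 9 lower in root over apex. Both SVP1-6D calls were lost in some settings.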
